A study of Venturia canescens with 18 samples.

Results

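The loci described here are the 100 that took the most sequencing counts in heads of isolated female Venturia canescens, out of 16752 loci counted. Venturia canescens is a parasitoid wasp, kept here on the moth Ephestia kuehniella as host. Members were chosen by their mean CPM (counts per 1000000 counts of the pool) over the 3 isolated pools. That level is therefore a description of how they were chosen, with no test. All 100 passed the low-count filter of the tests, which kept 15486 loci.

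Virgin females that had just emerged were boxed singly for at most 10 min in one of 3 conditions. One group was courted by a brother (an incompatible male), one was courted by an unrelated male (compatible) and one was isolated with no male (the control). Per the labels' protocols the wasps descended from a field collection in southern France, 10 heads per condition were pooled, and poly(A) RNA was sequenced as stranded libraries. Each group had 3 pools, and each pool was sequenced as 2 technical replicates whose titles carry different run and lane names. Whether pools differ in family or day is not stated, and a p-value here speaks only to the spread among the 9 pools. All groups shared the wasp stock, the rearing and the tissue, and the tissue could not be checked against head markers because the loci have no gene names.

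Poly(A) libraries of insect tissue are usually dominated by a small set of very abundant transcripts, often from mitochondria, the translation machinery, muscle or secreted proteins. Because CPM values of a library sum to a constant, a shift in a few such transcripts moves the CPM of every other locus the opposite way. In this haplodiploid wasp a complementary locus sets sex, so mating between siblings can yield diploid males, and a brother is a costly mate. The loci carry only XLOC identifiers, and 0 of the 100 matched the RefSeq gene table of assembly ASM1945775v1, so neither gene names, functions, lengths nor sequences can be given. Counts rise with transcript length as well as with the number of molecules. The order of loci below is an order of counts taken, not of transcripts per cell, and in pooled heads fewer cells of a type and less RNA per cell cannot be told apart.

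Across the whole series, pools held 62341897 to 103527471 counts and libraries 22079293 to 67940613. Brother pool 1 stood apart from the other 8 pools. It was the highest of the 9 pools at 36.3% of all loci tested, and results that rest on it are given with and without it. Both contrasts with isolation share the isolated pools, which also chose the members. The contrast of brother with unrelated pools takes from them only the low-count filter, the library scaling and the spread, each set over all 9 pools.

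The 100 loci took 27.3% to 32.2% of all head counts. Their summed share was 27.3%, 32.2% and 31.1% in brother pools 1 to 3, 29.4%, 29.1% and 29.2% in unrelated pools 1 to 3, and 32.1%, 29.8% and 31.2% in isolated pools 1 to 3. The 3 unrelated pools lay close together and below every isolated pool, while brother pools 2 and 3 lay inside or just above the isolated range and brother pool 1 lay below all other pools. Group means were 30.2% ± 2.58 for brother, 29.2% ± 0.173 for unrelated and 31.0% ± 1.15 for isolated pools (SD, n = 3 each). Counting error of these shares was small. The widest 95% Wilson interval of a pool was ± 0.0116 points (counting error only, since PCR copies were not told apart from separate molecules). Between 429 and 582 loci were needed to reach 50% of the counts of a pool, with the most in brother pool 1 (582).

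Within the 100, 4 loci stood far above the rest. XLOC_007188, XLOC_005383, XLOC_010488 and XLOC_006829 together held 10.6%, 13.6% and 12.8% of the counts in brother pools 1 to 3, 11.5%, 11.6% and 11.7% in unrelated pools 1 to 3, and 14.3%, 12.0% and 12.7% in isolated pools 1 to 3. The locus at rank 4 averaged 24249 CPM in isolated pools, 4.10 times the 5920 CPM of the locus at rank 5. Between neighbouring ranks from 5 to 100 the largest ratio was 1.17. These 4 filled the top 4 places in all 9 pools, and XLOC_007188 was first in all 9. Below them the levels fell slowly, with 1571 CPM at rank 50 and 909 CPM at rank 100, against a median of 7.01 CPM over all loci tested.

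**Figure D1:**
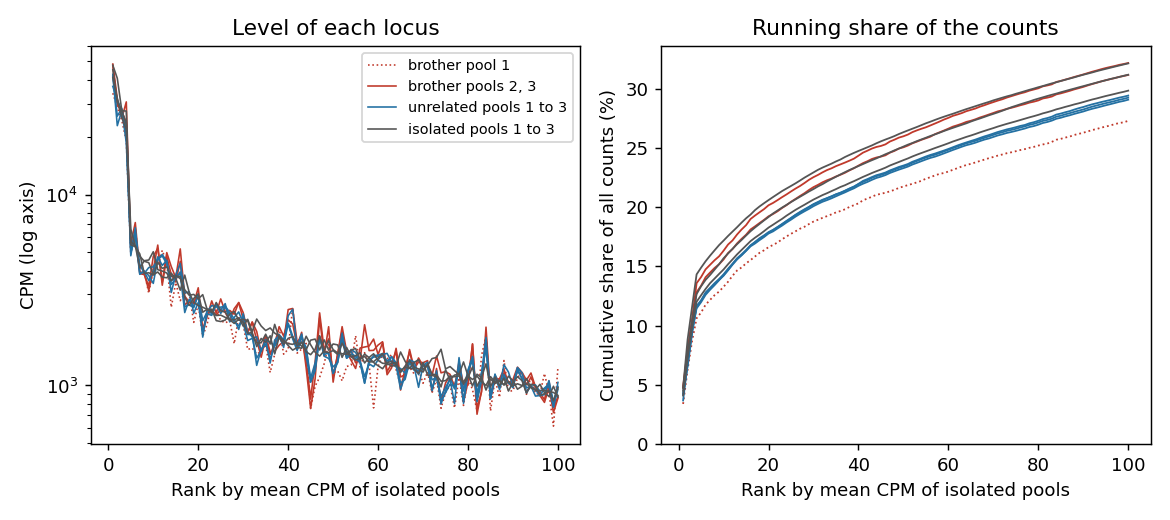
Left, CPM (log axis) of each of the 100 loci in each of the 9 pools, against the rank by mean CPM of the isolated pools. Right, the running share of all counts (%) over the same ranks. The first 4 loci stand apart in every pool, and the running share of brother pool 1 (dotted) ends lowest, at 27.3%.

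The locus with the most counts, XLOC_007188, had 33989, 48312 and 47498 CPM in brother pools 1 to 3, 36909, 42687 and 41751 CPM in unrelated pools 1 to 3, and 47628, 41071 and 45168 CPM in isolated pools 1 to 3. Brother pool 1 was its lowest pool, brother pool 2 its highest, and the groups overlapped. XLOC_005383 averaged 29995 ± 1648 CPM with brothers, 26667 ± 4223 CPM with unrelated males and 34398 ± 5479 CPM in isolation (SD, n = 3 each), and its highest pool was isolated pool 1 at 40684 CPM. XLOC_010488 was steadier, at 25596 ± 1428, 27869 ± 377 and 26760 ± 1256 CPM in brother, unrelated and isolated pools. XLOC_006829 had 19136 CPM in brother pool 1 and 30601 CPM in brother pool 2, a wider gap than between the group means of 24582 in brother, 20775 in unrelated and 24249 CPM in isolated pools. Fitted log2 differences of these 4 loci from isolated pools lay between -0.17 and 0.06 for brother pools and between -0.40 and 0.03 for unrelated pools, and none passed the test (edgeR adjusted p from 0.599 to 0.983 for brother and from 0.462 to 0.961 for unrelated pools).

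Ranks 5 to 10 in isolated pools were XLOC_005055, XLOC_014883, XLOC_008359, XLOC_007382, XLOC_004282 and XLOC_003114. XLOC_014883 had 6592, 6505 and 7135 CPM in brother pools, 6196, 6038 and 6705 CPM in unrelated pools, and 5368, 5333 and 5394 CPM in isolated pools. All 6 courted pools lay above all 3 isolated pools, and this locus ranked 5 in every courted pool and 6 in every isolated pool. Its log2 difference from isolated pools was 0.36 ± 0.094 (SE) for brother and 0.21 ± 0.094 for unrelated pools, neither of which passed the edgeR test with all 9 pools and TMM (adjusted p = 0.0818 and 0.475). For brother pools it passed with DESeq2 (adjusted p = 0.000742) and with edgeR on unscaled library sizes (adjusted p = 0.045). XLOC_004282 had 3041, 3317 and 3150 CPM in brother pools, 4149, 3762 and 3543 CPM in unrelated pools, and 4397, 3893 and 4543 CPM in isolated pools. Its brother pools lay below all other pools, at a log2 difference from isolated pools of -0.41 ± 0.12 (edgeR adjusted p = 0.101) and from unrelated pools of -0.21 ± 0.12 (edgeR adjusted p = 0.773). The difference from isolated pools passed with DESeq2 (adjusted p = 0.017) and with edgeR on unscaled library sizes (adjusted p = 0.0392). For the other 4 the largest log2 difference from isolated pools was -0.28, for XLOC_005055 in unrelated pools.

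**Figure D2:**
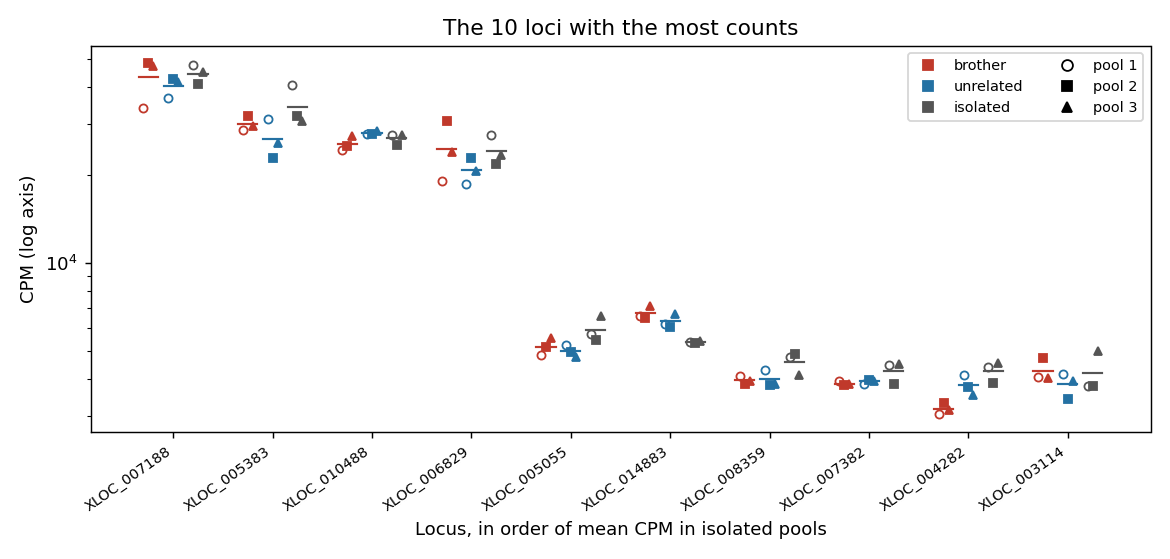
CPM (log axis) of the 10 loci with the highest mean CPM in isolated pools, with 1 point per pool and a bar at each group mean (brother, unrelated and isolated from left to right). XLOC_014883 is higher in all 6 courted pools than in the 3 isolated pools, and XLOC_004282 is lowest in the 3 brother pools.

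The list changed little with the pools used to draw it up. Of the 100 loci, 91, 92 and 91 were among the top 100 of brother pools 1 to 3, and 92, 93 and 93 among those of unrelated pools 1 to 3. In the isolated pools, which chose the list, the counts were 98, 96 and 97. In all 9 pools at once 83 held a place, made up of 49 of the first 50 loci and 34 of the second 50. Only 23 further loci entered the top 100 of any pool, and every one of the 100 stayed within the top 200 of all pools. A list drawn from the mean of the brother pools or of the unrelated pools shared 93 loci with it in each case. Lists drawn from the first and the second technical replicates of the isolated pools shared 97 loci with each other.

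The list had no natural edge at rank 100. XLOC_000132, XLOC_008036 and XLOC_001241 were last inside, at 915 ± 34.1, 914 ± 79.5 and 909 ± 55.2 CPM in isolated pools (SD, n = 3), and XLOC_010959, XLOC_001405 and XLOC_005408 were first outside, at 908 ± 31.2, 888 ± 33.1 and 887 ± 30.5 CPM. The lowest rank of any member in a pool was that of XLOC_008036, with 612, 722 and 765 CPM in brother pools, 774, 769 and 822 CPM in unrelated pools, and 919, 831 and 990 CPM in isolated pools. It fell to rank 185 in brother pool 1 and to rank 135 in unrelated pool 1. The non-member with the highest mean in brother pools was XLOC_005236, at 1071 ± 292 CPM in brother and 866 ± 132 CPM in isolated pools, and in unrelated pools it was XLOC_004564, at 1187 ± 83.6 CPM against 837 ± 82.1 CPM in isolation (SD, n = 3 each). The order within the list held too. Spearman's rho between pools over the 100 loci was 0.953 to 0.963 among isolated pools, which chose the list. Among brother pools rho was 0.876 to 0.980, and among unrelated pools 0.975 to 0.990. Between groups it was 0.809 to 0.938 for brother and isolated pools and 0.868 to 0.959 for unrelated and isolated pools. For brother and unrelated pools it was 0.911 to 0.961. These values are across loci, which are not independent, and are given as a description.

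Levels varied by a few percent between pools. The median coefficient of variation (SD over mean of CPM) of the 100 loci was 9.41% between brother pools, 4.22% between unrelated pools and 6.34% between isolated pools. Over all loci tested the same medians were 20.4%, 8.91% and 10.3%. Between brother pools 2 and 3 alone the median for the 100 was 4.14%. That value comes from 2 pools and the others from 3, so they are not fully alike. How much of the larger spread of the brother group came with its pool 1 was not tested. Counting alone would give a median of 0.296% for isolated pools. The 100 loci were not steadier than the loci that follow them in rank, whose median in isolated pools was 5.97% for the 100 loci next in rank and 5.12% for the 900 next in rank.

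The steadiest member between isolated pools was XLOC_011841, with 2502, 2509 and 2492 CPM (coefficient of variation 0.336%), and the least steady was XLOC_003931, with 982, 1052 and 1548 CPM (25.8%). XLOC_003931 was the only member over 20%, and 81 of the 100 were under 10%. From its lowest to its highest pool of the 9, a member spanned a median of 1.35-fold. For 70 of the 100 the span was under 1.5-fold, against 35.9% of all loci tested and 78.3% of the 900 loci next in rank, and for 6 it was over 2-fold, against 44.0%. Without brother pool 1 it was under 1.5-fold for 80 and over 2-fold for 3. The widest spans, 2.29-fold and 2.28-fold, were those of XLOC_013493 and XLOC_014286, each lowest in brother pool 1.

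Brother pool 1 was the low pool for much of the list. It held the lowest CPM of the 9 pools for 48 of the 100 loci and the highest for 9. Among all loci tested the balance was the other way, with 17.2% lowest and 36.3% highest there. With library sizes scaled by TMM (trimmed mean of M values), 68 members were lowest in it and 4 highest. That scaling divides the CPM of every locus in brother pool 1 by 1.07. The shares over all loci were taken on unscaled CPM only, so the TMM counts have no matching share beside them. The loci next in rank were not counted in this way, so the pattern is not shown to be particular to the list. For the 100 loci next in rank the median coefficient of variation was 9.24% between the 3 brother pools and 4.66% between brother pools 2 and 3. No member lay over 2-fold above or below all other pools in any pool. XLOC_013493 had 763 CPM in brother pool 1 against 1750 and 1528 CPM in brother pools 2 and 3, 1254 to 1432 CPM in unrelated pools and 1319 to 1466 CPM in isolated pools. XLOC_000325 had 1103 CPM there against 2401 and 2259 CPM in the other brother pools, 1789 to 1800 CPM in unrelated pools and 1424 to 1821 CPM in isolated pools. Both were singled out after their values were seen, for spans over 2-fold that end in this pool.

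The response to a brother was compared with isolation in the edgeR quasi-likelihood fit of all 9 pools over all loci, with Benjamini-Hochberg adjustment and a threshold of 0.05. Of the 100 loci, 1 was higher and 3 were lower in brother pools, while the test passed 2.18% of all loci (0.53% higher, 1.65% lower). The isolated pools of this contrast chose the members, so nothing is read from that count. DESeq2 passed 14 members (11.6% of all loci), and edgeR on unscaled library sizes 7 (2.6%). Brother pools lay wholly above the isolated pools at 9 members and wholly below at 18, against 6.64% and 15.9% of all loci. No member differed by over 2-fold in any of the 3 contrasts, against 9.85% of all loci for brother minus isolated, 3.29% for unrelated minus isolated and 6.28% for brother minus unrelated pools. None of the 900 loci next in rank did so either. The median log2 fold change of the 100 was 0.01 for brother minus isolated pools, against 0.03 over all loci.

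The member that rose was XLOC_000321, with 1826, 2021 and 1817 CPM in brother pools, 1785, 1570 and 1668 CPM in unrelated pools, and 946, 1298 and 999 CPM in isolated pools. Brother and unrelated pools both lay above all isolated pools. Its log2 fold change for brother minus isolated pools was 0.84 ± 0.13 (SE; edgeR adjusted p = 0.025), and for unrelated minus isolated pools the difference of 0.61 ± 0.13 did not pass (edgeR adjusted p = 0.244). The direct difference of brother from unrelated pools was 0.23 ± 0.13 (edgeR adjusted p = 0.772).

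XLOC_014286 fell most, with 757, 854 and 758 CPM in brother pools, 1040, 1092 and 1044 CPM in unrelated pools, and 1634, 1450 and 1727 CPM in isolated pools. The 3 groups did not overlap and unrelated pools lay in between. Its log2 fold change was -0.995 ± 0.11 for brother minus isolated (edgeR adjusted p = 0.0122), -0.63 ± 0.11 for unrelated minus isolated (edgeR adjusted p = 0.244) and -0.37 ± 0.11 for brother minus unrelated pools (edgeR adjusted p = 0.496). XLOC_010907 fell to 1165, 1127 and 1041 CPM in brother pools, against 1540, 1523 and 1650 CPM in isolated pools, with a log2 ratio of -0.48 ± 0.075 (edgeR adjusted p = 0.0263). It had 1159, 1252 and 1155 CPM in unrelated pools, all below the isolated pools, with a log2 difference of -0.43 ± 0.075 (edgeR adjusted p = 0.244).

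The last of the 3 loci that fell, XLOC_000025, lies outside the naming rule and is given because the count is small. It had 737, 755 and 707 CPM in brother pools, 907, 836 and 822 CPM in unrelated pools, and 1145, 991 and 1120 CPM in isolated pools. Its log2 fold change was -0.54 ± 0.097 for brother minus isolated pools (edgeR adjusted p = 0.0335) and -0.37 ± 0.097 for unrelated minus isolated pools (edgeR adjusted p = 0.266). All 4 loci passed in each technical replicate taken alone, with log2 fold changes for XLOC_014286 of -0.98 in the second and -1.02 in the first. All 4 calls were lost without brother pool 3, isolated pool 1 or isolated pool 3 (edgeR adjusted p from 0.0601 to 0.183). Over all loci those fits passed 3, 6 and 6 loci, against 337 with every pool. The loss was therefore not particular to these 4 loci. Among the members, XLOC_014286 alone passed without unrelated pool 2 (69 of all loci) or without unrelated pool 3 (41 of all loci). It was also the only member to pass in a fit of only brother and isolated pools (0.401% of all loci). The same held in a fit that blocked on replicate number (0.252%).

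**Figure D3:**
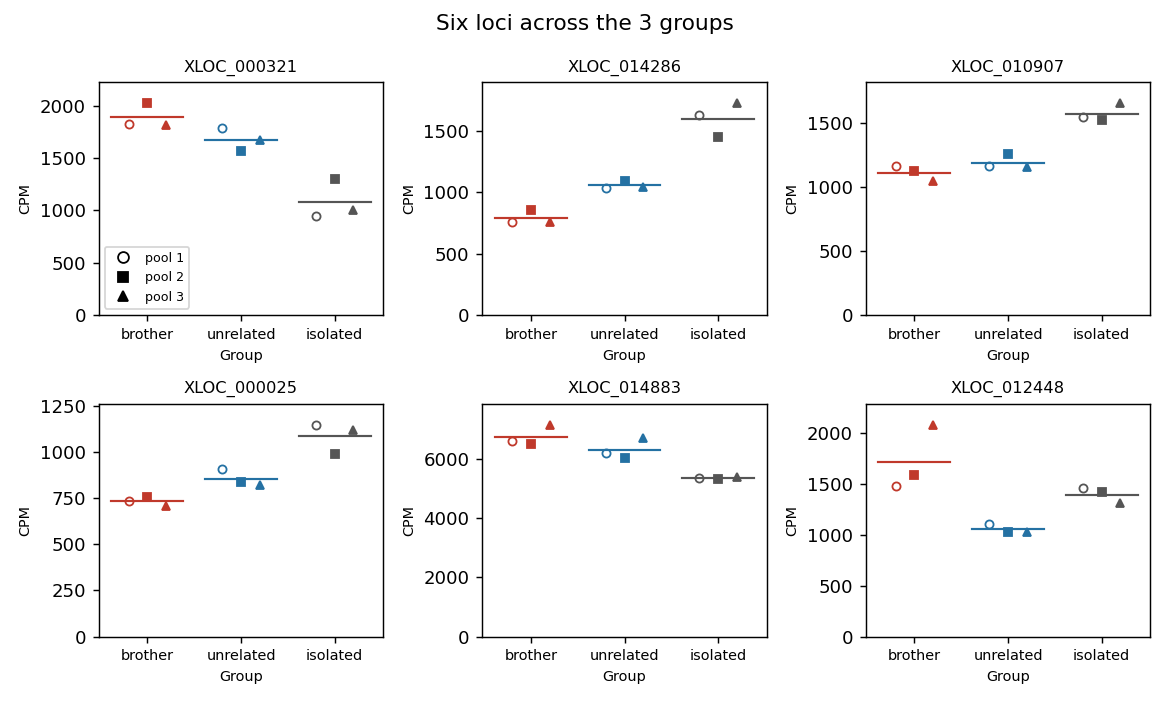
CPM of 6 loci in each pool (points) with the group mean (bar), brother, unrelated and isolated from left to right, on axes that start at 0. The first 4 panels are the loci that passed for brother minus isolated pools, and in each of them the unrelated mean lies between the other group means; XLOC_014883 and XLOC_012448 passed no contrast between conditions in the edgeR TMM fit of all 9 pools.

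Courtship by an unrelated male, against isolation, gave 0 members and 0% of all loci past the threshold (edgeR, all 9 pools). At an unadjusted p under 0.05 there were 20 of the 100, against 10.8% of all loci. The members with the smallest p were XLOC_000321 on the higher and XLOC_010907 on the lower side, whose values stand above. In the fit of the 6 unrelated and isolated pools alone, 3 members were higher and 9 lower, where that fit passed 6.88% of all loci (3.57% higher, 3.31% lower). DESeq2 passed 6 members, against 5.2% of the 8570 loci to which it gave an adjusted p. Without brother pool 1 edgeR passed 4 higher and 9 lower members, against 5.2% of all loci (2.82% higher, 2.38% lower). Unrelated pools lay wholly above the isolated pools at 18 members and wholly below at 22, against 17% and 12.2% of all loci. By sign, 37 of the 100 were higher in unrelated than in isolated pools, against 47.6% of all loci. On unscaled CPM 42 of the 100 were higher, against 8100 of the 15486 loci tested. The isolated pools of this contrast chose the members too, which leans loci near the cut toward lower courted values. Nothing is therefore read from these counts.

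The direct difference of brother from unrelated pools compared no isolated pool. Its low-count filter, TMM scaling and spread still rest on all 9 pools, those that chose the members included. No member passed (edgeR, all 9 pools), where 0.194% of all loci did, 6 of the 100 had an unadjusted p under 0.05 against 6.89% of all loci, and DESeq2 passed 2, against 1.26% of all loci. Brother pools lay wholly above the unrelated pools at 5 members and wholly below at 10, against 2.98% and 9.38% of all loci. The largest difference was at XLOC_012448, with 1485, 1590 and 2080 CPM in brother pools, 1112, 1026 and 1031 CPM in unrelated pools, and 1459, 1419 and 1311 CPM in isolated pools. Its brother pools were all above and its unrelated pools all below the isolated pools. The log2 difference of brother from unrelated pools was 0.76 ± 0.15 (SE; edgeR adjusted p = 0.121), and it passed without brother pool 1 (0.91 ± 0.099, edgeR adjusted p = 0.00423) and with DESeq2 (adjusted p = 0.000138). In a fit of the brother and unrelated pools alone, which leaves out the pools that chose the members, its edgeR adjusted p was 0.574 and no member passed, against 0.00659% of all loci. The lower member with the smallest p was XLOC_014286, given above. Over the 100 loci the log2 differences of brother from unrelated pools had a median of 0.06 with TMM, 71 being above 0. Over all loci the median was 0.03, and 56.6% were above 0. On unscaled CPM the median of the members was 0.00 and 50 were above 0. Over all 15486 loci tested it was -0.02, and 7127 were above 0. No common direction of the members held under both scalings, while their median lay above that of all loci under both.

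Leaving out brother pool 1 changed how many members passed. For brother minus isolated pools 27 were then higher and 4 lower, including all 4 loci above, while 16.1% of all loci passed (7.26% higher, 8.8% lower). With library sizes unscaled as well, 20 were higher and 11 lower, against 17.9% of all loci (3.95% higher, 13.9% lower), and 24 of the 31 were shared between the 2 scalings. XLOC_014422, the higher locus with the smallest p in that fit, had 950, 1652 and 1648 CPM in brother pools, 1396, 1420 and 1356 CPM in unrelated pools, and 993, 1250 and 1074 CPM in isolated pools. Brother pool 1 lay below all 3 isolated pools for it and brother pools 2 and 3 above all other pools. Its log2 difference for brother minus isolated pools was 0.66 ± 0.073 without brother pool 1 (edgeR adjusted p = 0.00116) and 0.40 ± 0.22 with it (edgeR adjusted p = 0.312). XLOC_014883 also passed without that pool, at 0.43 ± 0.067 (edgeR adjusted p = 0.00381).

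For brother minus unrelated pools without brother pool 1, 16 members were higher and 1 was lower, while 4.64% of all loci passed (2.49% higher, 2.15% lower). With library sizes unscaled as well the split was 7 higher and 5 lower, against 9.55% of all loci (1.54% higher, 8.02% lower), and 8 loci were shared between the 2 scalings. XLOC_000325 was among the higher loci, with a log2 difference of 0.49 ± 0.08 (edgeR adjusted p = 0.0162 with TMM and 0.0332 unscaled). The 1 lower locus, XLOC_014297, had 5101, 3481 and 3351 CPM in brother pools, 4858, 4765 and 4255 CPM in unrelated pools, and 3693, 4109 and 3976 CPM in isolated pools. Brother pool 1 was its highest pool of the 9 and brother pools 2 and 3 its lowest.

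**Figure D4:**
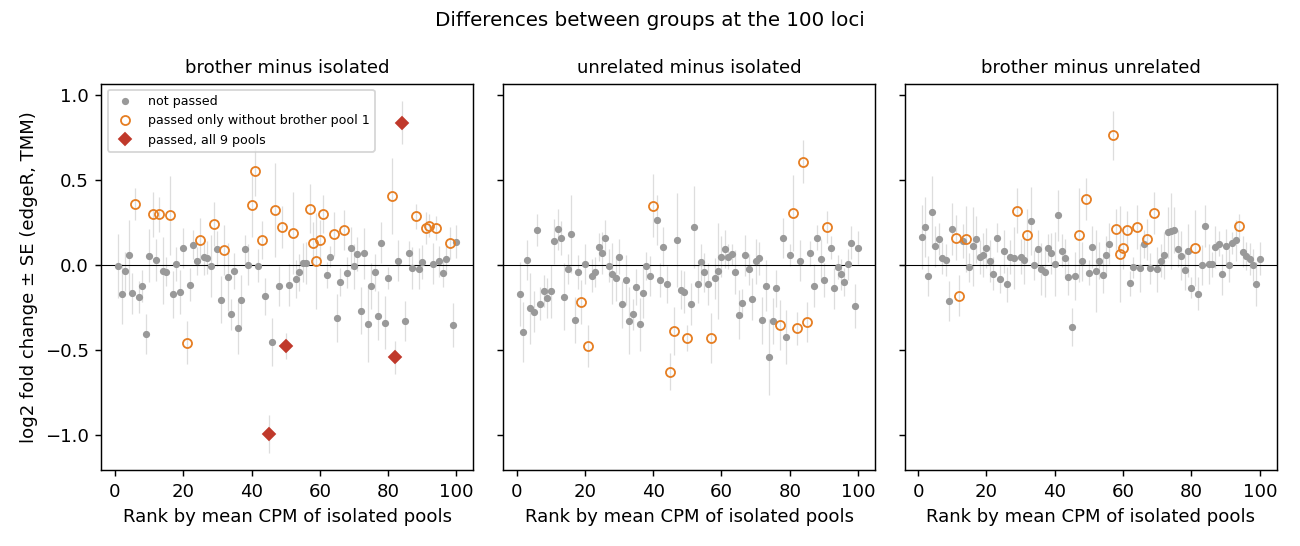
Log2 fold change ± SE (edgeR, TMM, all 9 pools) of the 100 loci against their rank in isolated pools, for brother minus isolated, unrelated minus isolated and brother minus unrelated pools. Diamonds passed at an adjusted p under 0.05 with all 9 pools (4, 0 and 0 loci), and open circles, drawn at their 9-pool value, passed only without brother pool 1 (27, 13 and 17 loci).

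The technical replicates gave a further comparison that the choice of members did not use, since the choice summed them. In a fit of all 18 libraries with the pool as a block, 38 members were higher and 28 lower in the second than in the first technical replicate (edgeR adjusted p under 0.05), while 26.1% of all loci passed (12.2% higher, 13.9% lower). With library sizes unscaled the split turned to 31 higher and 45 lower, against 32.6% of all loci (8.33% higher, 24.3% lower). All 10 of the first 10 loci passed, 30 of ranks 11 to 50 and 26 of ranks 51 to 100. The share was as high just below the list, at 69 of the 100 loci next in rank. On unscaled CPM, 26 members were higher in the second replicate in all 9 pools and 37 were lower in all 9, where 4.5% and 12.9% of all loci did so.

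Most of the differences were small, and not all of them repeated from pool to pool. On unscaled CPM that of XLOC_005383 ran from -0.003 to 0.55 on the log2 scale over the 9 pools. The median size of the fitted difference between technical replicates was 0.05 on the log2 scale for the 100 loci, against 0.13 for brother minus isolated, 0.14 for unrelated minus isolated and 0.09 for brother minus unrelated pools. XLOC_012448 differed most. Its log2 CPM was higher in the second than in the first replicate by 0.44 to 0.69 in the 9 pools, with means of 1604 CPM in the second and 1100 CPM in the first (fitted 0.58 ± 0.017 SE; edgeR adjusted p = 9.1e-26). XLOC_010488 averaged 28629 CPM in the second and 24354 CPM in the first replicate (fitted 0.27 ± 0.011; edgeR adjusted p = 1.3e-20). On the lower side XLOC_015137 averaged 2753 CPM in the second and 3070 CPM in the first (fitted -0.12 ± 0.0097; edgeR adjusted p = 1.2e-12), and XLOC_012771 averaged 1763 and 1929 CPM in the second and the first (fitted -0.10 ± 0.01; edgeR adjusted p = 3.6e-09).

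The summed share of the 100 loci was higher in the second technical replicate in all 9 pools. On unscaled CPM the median member did not rise, since the median log2 difference of the list was -0.037 to -0.016 in the 9 pools. For the mean over pools that median was -0.018 for the members and -0.038 over all loci. With TMM the median was 0.02 for the members, 55 of the 100 being higher, against -0.01 and 47.5% of all loci. Ranks 1 to 4 averaged 44535, 32593, 28629 and 24144 CPM in the second replicate. In the first they averaged 40402, 27904, 24354 and 22103 CPM. The summed share was 27.7% to 32.5% in the second against 26.6% to 31.7% in the first in brother pools. It was 29.8% to 30.5% against 28.2% to 28.6% in unrelated pools, and 30.5% to 32.6% against 29.0% to 31.3% in isolated pools. Each condition held both technical replicates of each pool. For XLOC_012448, the locus with the largest such difference, brother minus unrelated pools gave log2 differences of 0.69 ± 0.15 in the second and 0.75 ± 0.15 in the first replicate alone (edgeR adjusted p = 0.221 and 0.155). For XLOC_000321, which was higher in the second replicate by 0.27 ± 0.024 (edgeR adjusted p = 2.4e-11), brother minus isolated pools gave 0.81 ± 0.14 in the second and 0.86 ± 0.13 in the first (edgeR adjusted p = 0.0345 and 0.0306).

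**Figure D5:**
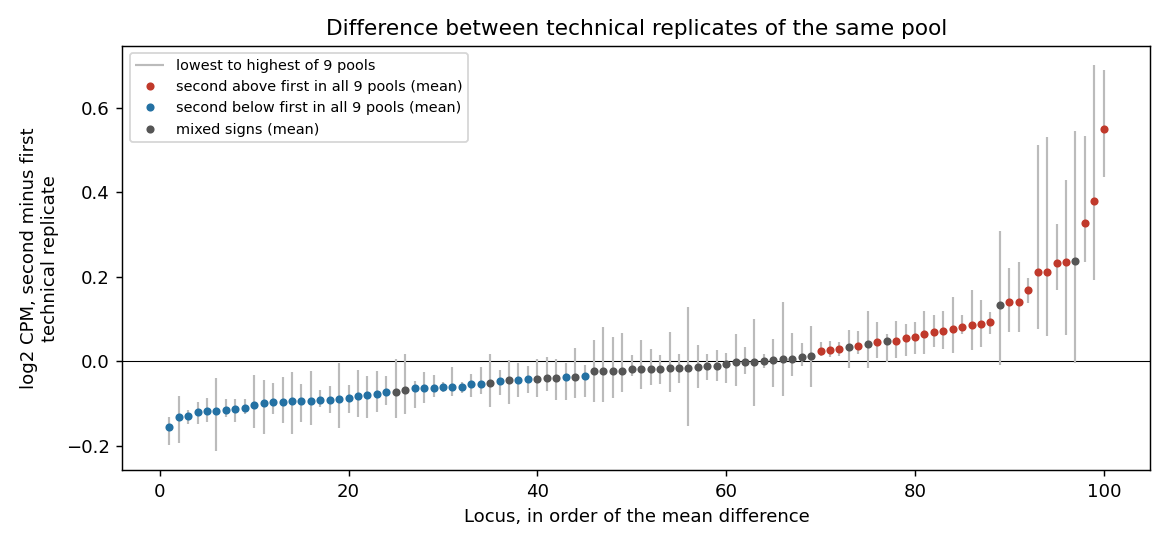
Difference in log2 CPM between the second and the first technical replicate of the same pool for the 100 loci, sorted by the mean over 9 pools (points), with lines from the lowest to the highest pool. For 26 loci the second replicate is above the first in all 9 pools and for 37 it is below in all 9, and XLOC_012448 at the right end spans 0.44 to 0.69.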

How the data were processed

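The authors deposited 1 table of raw counts for 16752 loci in 18 libraries, whole numbers with no normalisation. The tools listed, per the submitters' processing notes and with no role or order, were Cufflinks, HTSeq, TopHat and Trimmomatic 0.36. Build, annotation and counting rules (strand, overlaps, paralogs): not given in the sources used here. Overlapping loci or paralogs may thus share or split reads. Columns were matched to samples by condition, replicate number and the letter of the second technical replicate; the female columns that name no male were assigned to the isolated group. Counts of the 2 technical replicates were summed to 9 pools, and CPM is the count over the pool total times 1000000. Tests used edgeR 4.0.16 in R 4.3.3 (quasi-likelihood, filterByExpr, TMM; SE as the log2 fold change over the square root of F), with DESeq2 1.42.0 as an alternative, and were tested on simulated data. Each gave p-values adjusted over the loci tested. DESeq2 left some loci without an adjusted p, and gave one to 8570 loci for unrelated minus isolated pools. Loci were named by level (first 10), by the edge of the list, by contrast (at most 2 per direction among those that passed with no overlap, otherwise the smallest p), by spread and by rank. Gene lists of head cell types could not be applied without names. The members and lists were chosen with earlier results of these data known. A locus named outside the rule was chosen after its values were seen, as were XLOC_000025, XLOC_010349, XLOC_014422, XLOC_014297, XLOC_000325, XLOC_013493 and the fits without brother pool 1 on unscaled library sizes.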

Additional observations from a re-analysis of the deposited data

Results flagged for a closer look

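At 2 of the 100 loci the brother pools and the unrelated pools lay on opposite sides of the isolated pools. How many of all loci did so is not given here, so nothing is read from that count. XLOC_012448 was above the isolated pools in all 3 brother pools and below them in all 3 unrelated pools, with a log2 difference of brother from unrelated pools of 0.76 that did not pass the test (edgeR adjusted p = 0.121). It was also the locus with the largest difference between technical replicates, and brother minus unrelated pools gave 0.69 in the second and 0.75 in the first replicate alone. XLOC_010349 was the reverse, with 1097, 1005 and 1040 CPM in brother pools, 1209, 1176 and 1185 CPM in unrelated pools, and 1142, 1100 and 1121 CPM in isolated pools. Its log2 difference of brother from unrelated pools was -0.13 (edgeR adjusted p = 0.742).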

How the results depend on the processing

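Numbers of members that passed are given for brother minus isolated, unrelated minus isolated and brother minus unrelated pools, where the values above were 4, 0 and 0. DESeq2 passed 14, 6 and 2. Fitting only the groups compared passed 1 and 12 for the first pair of contrasts and 0 for the third. For brother minus isolated pools, unscaled library sizes passed 7, the first 50 loci in place of 100 held 2, and a replicate block left 1; the block left the other contrasts at 0. Deviations of same-numbered pools correlated between -0.307 and 0.190, and the labels do not say that a number marks a shared origin, so the numbers were not used as pairs in the values above. When 1 pool at a time was omitted, the counts ran from 0 to 31, 0 to 13 and 0 to 17, each highest without brother pool 1. Over all loci the counts in the same fits ran from 3 to 2494, 0 to 807 and 1 to 720. Between technical replicates 59 to 64 members passed when a pool was left out, where 3214 to 3450 of all loci did. The summed share in isolated pools was 25.1% for 50 loci, 38.1% for 200, 27.8% without the most abundant locus, and 30.5% to 31.6% without 1 isolated pool. Other ways of choosing the 100 kept 93 to 100 of them. With library sizes unscaled, XLOC_013493 changed sign for brother minus isolated pools, to -0.03 with 0.02 under TMM, and for brother minus unrelated pools, to -0.02 with 0.06 under TMM. None of these passed. The cause of each change was not tested. The lowest count of a member in a pool was 45202, and depth was not tested as a cause of any change.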
